A study of Homo sapiens with 6 samples.

Results

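Serpins, trypsin-like serine proteases, Kunitz-type inhibitors and the plasminogen system were described in NCI-H1975 cells that had become resistant to WZ4002. The members were taken by gene symbol: symbols that begin with SERPIN, with TMPRSS, or with KLK or PRSS and a number, together with ST14, HPN, SPINT1, SPINT2, PLAU, PLAUR, PLAT, F3, TFPI, TFPI2 and THBD. They comprised 101 of 22215 probe sets, which stand for 69 of 11963 genes. No filter on low values was applied, so that all 69 genes were tested. WZR6, the resistant cells, is 1 clone isolated from NCI-H1975 cells that had been grown in rising amounts of the EGFR kinase inhibitor WZ4002, and it was measured on 3 arrays. Parental NCI-H1975, a drug-sensitive human non-small cell lung cancer line, was measured on another 3 arrays. All cells were harvested in exponential growth in medium with serum, and the labels do not state whether WZ4002 was in the medium then. The labels do not say that the 3 samples of a group came from separate cultures, so p-values measure the spread between these samples, which may be technical.

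The plasminogen system generates plasmin, a broad protease that degrades fibrin and matrix. Urokinase bound to its cell surface receptor and tissue-type plasminogen activator cut plasminogen to plasmin, and serpins trap these enzymes in inactive complexes. Epithelial cells also carry a membrane-bound cascade in which matriptase and prostasin activate each other and cleave channel subunits, growth factor precursors and junction proteins, held in check by the Kunitz inhibitors encoded by SPINT1 and SPINT2. Tissue factor starts coagulation at the cell surface, and tissue factor pathway inhibitor stops it.

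Promoter sequences from RefSeq (GRCh38.p14) are shown for 5 members that fell and hold an AP-1 match, described below, and for TMPRSS3, the member that rose most. They were chosen after their matches and values were seen, so the motifs in them say nothing of how often called genes hold one. SPINT1, SERPINA3, PLAU, PRSS21, TMPRSS11E, SERPINB4 and SERPINB1, which fell further than PRSS2, hold 0 AP-1 matches in their windows. No window was found for SPINT2, ST14, PRSS8 and THBD, which also fell further. SERPINB7, which fell further too, holds AP-1 matches but is not shown. Each window is the 250 bases before the annotated transcription start, read 5′ to 3′ on the gene's strand. Capitals mark matches on either strand to 4 motifs: the E-box form CACCTG, the AP-1 motif TGANTCA, the GC box GGGCGG and the grainyhead-like motif AACCNGTT. SERPINB5 (chr18:63476708-63476957, plus strand) holds an AP-1 match from -146 to -140 and an E-box match from -26 to -21. PLAUR (chr19:43670170-43670419, minus strand) and TFPI2 (chr7:93890754-93891003, minus strand) each hold 1 AP-1 match, from -186 to -180 and from -87 to -81. PRSS2 (chr7:142770720-142770969, plus strand) and PRSS3 (chr9:33795311-33795560, plus strand) are duplicated trypsinogen genes whose windows are identical at 219 of 243 aligned bases (90.1%). In both an E-box match is followed directly, without overlap, by an AP-1 match, and a second E-box match lies closer to the start. TMPRSS3 (chr21:42389150-42389399, minus strand) holds no match to the 4 motifs in this window.
SERPINB5: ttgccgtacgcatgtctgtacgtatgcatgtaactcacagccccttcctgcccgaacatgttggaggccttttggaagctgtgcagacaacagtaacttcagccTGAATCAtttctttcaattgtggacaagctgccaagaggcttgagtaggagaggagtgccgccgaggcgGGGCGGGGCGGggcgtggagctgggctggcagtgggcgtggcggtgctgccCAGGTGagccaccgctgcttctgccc
PLAUR: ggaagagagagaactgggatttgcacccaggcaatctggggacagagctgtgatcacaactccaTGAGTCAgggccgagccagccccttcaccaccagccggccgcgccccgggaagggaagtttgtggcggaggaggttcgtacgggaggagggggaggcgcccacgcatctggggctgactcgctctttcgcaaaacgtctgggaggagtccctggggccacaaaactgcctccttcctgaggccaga
TFPI2: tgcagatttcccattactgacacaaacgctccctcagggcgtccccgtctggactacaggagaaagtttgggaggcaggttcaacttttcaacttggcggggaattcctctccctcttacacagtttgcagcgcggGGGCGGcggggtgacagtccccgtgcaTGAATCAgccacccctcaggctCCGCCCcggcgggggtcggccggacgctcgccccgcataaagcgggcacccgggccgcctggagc
PRSS2: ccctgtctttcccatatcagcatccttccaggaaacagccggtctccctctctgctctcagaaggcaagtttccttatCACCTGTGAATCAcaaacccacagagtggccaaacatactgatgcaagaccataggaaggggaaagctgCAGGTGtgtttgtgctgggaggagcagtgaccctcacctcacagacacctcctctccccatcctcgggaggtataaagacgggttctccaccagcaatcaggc
PRSS3: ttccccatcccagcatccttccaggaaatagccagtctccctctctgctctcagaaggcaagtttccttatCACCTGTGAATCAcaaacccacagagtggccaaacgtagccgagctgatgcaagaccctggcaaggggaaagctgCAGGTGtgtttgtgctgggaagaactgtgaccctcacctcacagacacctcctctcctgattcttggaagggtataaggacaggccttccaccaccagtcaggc
TMPRSS3: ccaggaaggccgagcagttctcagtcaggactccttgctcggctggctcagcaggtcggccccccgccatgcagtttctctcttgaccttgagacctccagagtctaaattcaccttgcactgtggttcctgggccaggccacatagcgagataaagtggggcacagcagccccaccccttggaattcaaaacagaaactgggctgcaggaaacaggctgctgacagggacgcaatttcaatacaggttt

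Windows were found for 51 member genes, some with several start sites, which gave 69 windows. An AP-1 match was present in 12 of these 69 windows (17.4%), against 2308 of 35116 windows of all genes (6.57%). The E-box form was present in 17 member windows (24.6%), against 17.5% of all windows, and the GC box in 29 (42.0%), against 42.6%. A match to the grainyhead-like motif was present in 0 member windows, against 1.49% of all windows. By their call in the comparison below, an AP-1 match lay upstream of 2 of 7 genes that rose (F3 and TMPRSS15), 6 of 16 that fell (PLAUR, PRSS2, PRSS3, SERPINB5, SERPINB7 and TFPI2) and 3 of 28 that were not called. The counts by call are per gene, and only 16 of the 24 genes that fell had a window, whereas the shares above are per window. PRSS2 and PRSS3 are duplicates with similar windows, so their matches are not separate finds. All of these are letter matches, given as a description without a test.

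WZR6 was compared with parental cells to ask which protease and inhibitor transcripts differ between the resistant clone and the sensitive line. Values are log2 of the deposited intensities, and each gene is represented by the brightest of its single-gene probe sets. A gene was called at an adjusted p under 0.05 in limma, adjusted over all 22215 probe sets, and n = 3 arrays per group throughout. Of the 69 genes, 31 were called (44.9%), against 46.0% of all genes. Of these, 24 fell in WZR6 (34.8%), against 22.7% of all genes, and 7 rose (10.1%), against 23.3% of all genes. A fall of at least 2-fold was called for 12 members (17.4%), against 3.42% of all genes, and a rise of at least 2-fold for 1 member (1.45%), against 1.36%. The other 38 members were not called, and the median difference of the 69 was -0.01, against 0.02 over all genes. Over probe sets, 37 of 101 fell, against 19.5% of all probe sets, and 10 rose, against 21.6%. The groups did not overlap for 36 of 69 members (52.2%), against 56.3% of all genes.

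The 12 members that fell at least 2-fold included epithelial membrane proteases and their inhibitors, SERPINB5, TFPI2, SERPINA3, PRSS3, urokinase and its receptor. TMPRSS3 was the 1 member that rose at least 2-fold. The 3 largest decreases were those of SPINT2, SERPINB5 and SPINT1, at 9.62-fold, 7.42-fold and 6.72-fold. This order depended on how dim signals were treated: with values below the table's median raised to it, as a floor, SERPINB5 differed by -1.77 and SPINT1 by -1.42 on the log2 scale, behind TFPI2 at -2.34 and SERPINA3 at -2.13. The within-group spread was small beside these differences: the median SD was 0.11 over the member probe sets and 0.09 over all probe sets.

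**Figure D1:**
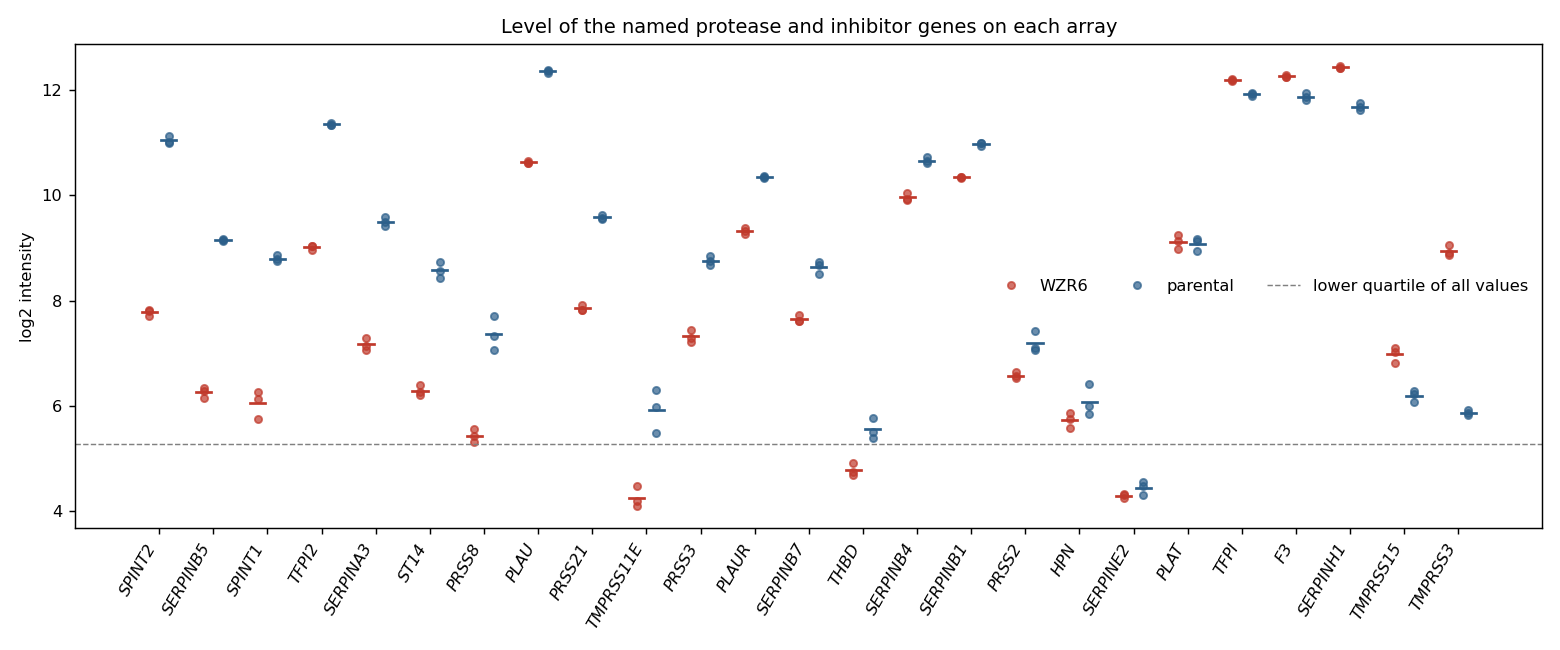
Log2 intensity on each array (points) and the group mean (bars) for 25 genes, WZR6 in red left of parental in blue, ordered by difference. The dashed line is the lower quartile of all values, 5.27. TMPRSS3 is the one gene at the right with a wide gap in which all 3 WZR6 arrays lie above the parental arrays.

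Urokinase and its receptor fell, while the tissue-type activator did not pass the test. PLAU, which encodes urokinase, had log2 intensities of 10.65, 10.62 and 10.62 in WZR6, against 12.36, 12.39 and 12.32 in parental cells. The groups were far apart, with WZR6 3.32-fold lower (95% interval 3.08 to 3.58, adjusted p = 9.39e-07 in limma), and the other PLAU probe set gave 3.30-fold. PLAUR, the urokinase receptor, had 9.32, 9.39 and 9.26 in WZR6, against 10.35, 10.34 and 10.37 in parental cells, a fall of 2.04-fold (1.87 to 2.23, adjusted p = 1.33e-05). All 3 of its probe sets fell, by 1.95-fold to 2.19-fold. PLAT, the tissue-type activator, had 8.99, 9.14 and 9.24 in WZR6, against 9.17, 8.94 and 9.13 in parental cells. Its groups overlapped, and the difference of 0.04 had a 95% interval of -0.17 to 0.25 (adjusted p = 0.749).

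Serpins that target plasmin or its activators gave 1 call, a fall, among 4 measured genes, against 46.0% called and 22.7% lower of all genes. SERPINF2, the plasmin inhibitor antiplasmin, differed by -0.34 ± 0.09 (SE, adjusted p = 0.0254 in limma), at 6.13 ± 0.09 in WZR6 and 6.46 ± 0.17 in parental cells (SD, n = 3 each). SERPINE2, protease nexin-1, had 4.25, 4.30 and 4.33 in WZR6, against 4.56, 4.48 and 4.30 in parental cells. Both groups lay below 5.27, the lower quartile of all values, a range in which background makes up much of an intensity. It was not called (adjusted p = 0.136), but was called without parental replicate 3, at -0.23 (adjusted p = 0.023), and over its alternatives the adjusted p ran from 0.023 to 1. SERPINA5, the protein C inhibitor, and SERPINI1, neuroserpin, differed by -0.05 and 0.04 and were not called. Some inhibitors of this system had no probe set with a single gene symbol in the annotation used and are not analysed here.

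Genes known to act with plasminogen, from a list of 18 measured genes, held 5 that rose (27.8%), 4 that fell (22.2%) and 9 without a call, against 23.3% higher and 22.7% lower of all genes, and their median difference was -0.03. MRC2, a collagen uptake receptor that associates with the urokinase receptor, fell 3.14-fold, and ITGA3, an integrin chain, fell 2.18-fold. IGF2R, which binds the urokinase receptor and plasminogen, rose 1.36-fold, and THBS1, thrombospondin, rose 1.33-fold.

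Membrane-anchored serine proteases moved in both directions, with 5 of 12 lower (41.7%), 2 higher (16.7%) and 5 not called. Of all genes, 22.7% were lower and 23.3% higher. ST14, which encodes matriptase, had 6.39, 6.20 and 6.26 in WZR6, against 8.57, 8.43 and 8.73 in parental cells, and was 4.90-fold lower (4.23 to 5.68, adjusted p = 4.41e-06 in limma). A second ST14 probe set was 8.75-fold lower, and another, at 5.35, 5.18 and 5.14 in WZR6 and 5.11, 5.23 and 5.00 in parental cells, was not called. PRSS8, the GPI-anchored prostasin that acts with matriptase, had 5.32, 5.57 and 5.42 in WZR6, against 7.71, 7.07 and 7.32 in parental cells. The lowest parental array still lay well above the highest WZR6 array, and the fall was 3.81-fold (2.93 to 4.93, adjusted p = 0.0001). With the floor ST14 differed by -1.20 on the log2 scale, against -2.29 without it, and remained called. PRSS8 then differed by -0.11 and was no longer called, since both groups then lay at or near the floor.

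PRSS21, testisin, another GPI-anchored protease, had 7.83, 7.92 and 7.82 in WZR6, against 9.62, 9.57 and 9.56 in parental cells, or 3.31-fold lower (3.04 to 3.59, adjusted p = 1.3e-06 in limma). TMPRSS11E had 4.19, 4.09 and 4.47 in WZR6, against 6.31, 5.49 and 5.98 in parental cells, or 3.20-fold lower (2.28 to 4.48, adjusted p = 0.000629). Its WZR6 mean lay below the lower quartile, which limits the fold, and its call ended with the floor. TMPRSS4 fell 1.46-fold, at 5.95 ± 0.19 in WZR6 and 6.49 ± 0.14 in parental cells (SD).

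TMPRSS3 changed the other way. This membrane protease, whose inherited loss causes deafness in humans, had 8.86, 8.90 and 9.06 in WZR6, against 5.83, 5.92 and 5.86 in parental cells. All 3 WZR6 arrays stood far above the parental arrays, and the rise was 8.40-fold (7.52 to 9.39, adjusted p = 4.7e-07 in limma). With the floor the difference was 1.56 on the log2 scale, against 3.07 without it, and remained called (adjusted p = 0.000256 in limma). TMPRSS3 had 1 probe set, so no second measurement was available. TMPRSS15, enteropeptidase, which activates trypsinogen in the gut, had 6.81, 7.03 and 7.11 in WZR6, against 6.22, 6.28 and 6.07 in parental cells, or 1.73-fold higher (1.49 to 2.01, adjusted p = 0.000491). Its other probe set was dimmer and rose 3.80-fold, with 5.04, 5.80 and 6.13 in WZR6, against 3.73, 3.62 and 3.83 in parental cells. The call on the brighter probe set ended with the floor.

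HPN, hepsin, had 5.87, 5.59 and 5.76 in WZR6, against 5.99, 6.42 and 5.84 in parental cells, with overlap and no call (adjusted p = 0.12). Without parental replicate 3 it differed by -0.46 and was called (adjusted p = 0.0499), and its adjusted p ran from 0.0499 to 1 over the alternatives. TMPRSS2, which primes viral spike proteins and is fused to ETS genes in prostate cancer, differed by 0.00 ± 0.06 (SE, adjusted p = 0.999). TMPRSS5, TMPRSS6 and TMPRSS11D differed by 0.14, 0.01 and 0.02 and were not called.

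All 4 Kunitz inhibitors were called, 3 of them lower, against 46.0% called and 22.7% lower of all genes. SPINT2, which inhibits matriptase, prostasin and hepsin, had linear intensities of 227, 208 and 225 in WZR6, against 2241, 2044 and 2062 in parental cells, the largest decrease among the 69 genes (9.62-fold, 8.70 to 10.6, adjusted p = 2.73e-07 in limma). SPINT1, its paralog, had 5.75, 6.14 and 6.26 in WZR6, against 8.79, 8.86 and 8.75 in parental cells, or 6.72-fold lower (5.45 to 8.30, adjusted p = 9.05e-06). TFPI2, a matrix-bound inhibitor of plasmin and trypsin, had 9.04, 9.04 and 8.96 in WZR6, against 11.34, 11.38 and 11.34 in parental cells. Its fall was 5.05-fold (4.66 to 5.48, adjusted p = 4.03e-07), and its other probe set fell 6.41-fold. The proteases ST14 and PRSS8 and both of their inhibitors were thus all lower in WZR6.

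TFPI, tissue factor pathway inhibitor, is uncertain because its 5 probe sets disagreed. The brightest had 12.20, 12.21 and 12.17 in WZR6, against 11.93, 11.94 and 11.89 in parental cells, and rose by 0.27. Another rose by 0.63, and 2 fell, with differences of -0.62 and -0.25. The fifth was not called. Groups of the second-brightest did not overlap either, at 11.13, 11.16 and 11.23 in WZR6 and 11.81, 11.76 and 11.80 in parental cells. The gene's difference turned to -0.62 without _x_at and _s_at probe sets and to -0.01 as the mean of its probe sets.

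**Figure D2:**
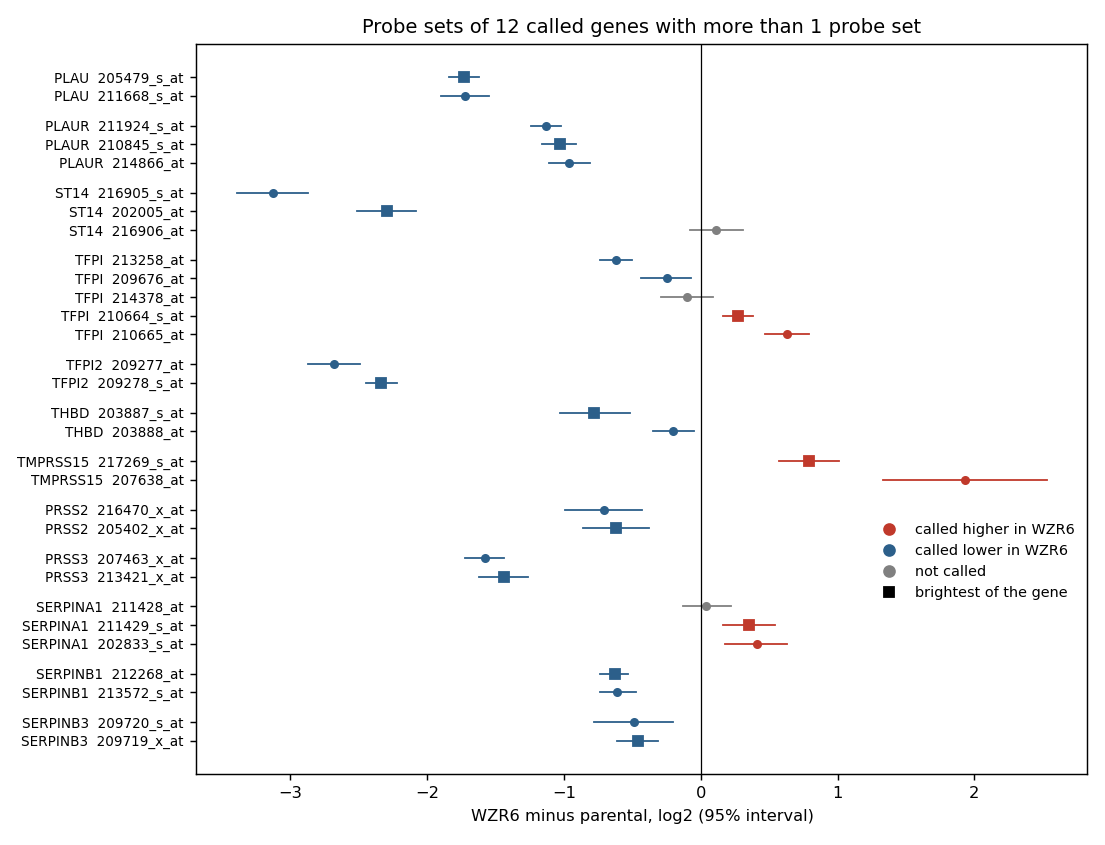
WZR6 minus parental difference on the log2 scale with its 95% interval for each probe set of 12 called genes with more than 1 probe set. Squares mark the brightest probe set of a gene. Every gene except ST14 and TFPI has the differences of all its probe sets on one side of 0, though 1 of SERPINA1 lies at 0.04. The 5 of TFPI spread from -0.62 to 0.63.

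Of 14 measured genes for known substrates of membrane serine proteases, 7 fell, 1 rose and 6 gave no call, against 22.7% lower and 23.3% higher of all genes, with a median difference of -0.57. EPCAM, an adhesion molecule that matriptase cleaves, fell 76.8-fold, and CLDN7, its tight junction partner, 6.89-fold. SCNN1A, a subunit of the epithelial sodium channel that these proteases activate, fell 7.11-fold, and IGFBP3 fell 5.37-fold. Epithelial markers, a list that also holds EPCAM, fell with them for 5 of 6 genes (83.3%), against 22.7% of all genes. The summed intensity of these 6 markers was 26071 to 26752 on the WZR6 arrays and 45073 to 45642 on the parental arrays. The keratin KRT18 stayed bright in both groups, at 14.02 in WZR6 and 14.14 in parental cells, and was not called. The part of this shift in the falls of ST14, PRSS8, SPINT1 and SPINT2 was not tested. In such bulk samples, fewer cells of a type and less RNA per cell cannot be told apart.

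Coagulation regulators gave 1 rise and 1 fall among 5 measured genes (20.0% each), against 23.3% higher and 22.7% lower of all genes. F3, which encodes tissue factor, had 12.26, 12.25 and 12.29 in WZR6, against 11.81, 11.88 and 11.95 in parental cells, or 1.31-fold higher (1.20 to 1.43, adjusted p = 0.00102 in limma). It was among the brightest members in both groups. THBD, thrombomodulin, had 4.74, 4.69 and 4.92 in WZR6, against 5.51, 5.39 and 5.77 in parental cells, or 1.71-fold lower (1.43 to 2.05, adjusted p = 0.00114). The other THBD probe set, with both group means below the lower quartile, fell only 1.15-fold (adjusted p = 0.039 in limma). These are dim signals, and the call of THBD ended with the floor. SERPINC1 (antithrombin), SERPIND1 (heparin cofactor II) and SERPINA10 were not called.

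Among 22 other measured coagulation factors and protease-activated receptors, 5 fell (22.7%), 3 rose (13.6%) and 14 were not called, with a median of 0.04. The share that fell equalled that of all genes, 22.7%, while 23.3% of all genes rose. PROS1, protein S, a cofactor of activated protein C, fell 4.10-fold. F2R, the thrombin receptor, fell 1.35-fold, but its groups overlapped and its adjusted p was 0.0446 in limma. PROCR, the endothelial protein C receptor, rose 1.48-fold, and GGCX, the vitamin K-dependent carboxylase, rose 1.51-fold.

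Among 6 clade A serpins, most of which are plasma proteins made by the liver, SERPINA3 fell, SERPINA1 rose and 4 were not called. Calls were thus 16.7% each way, against 22.7% lower and 23.3% higher of all genes. SERPINA5 and SERPINA10, also of clade A and not called, were counted above with the plasminogen and coagulation genes. SERPINA3, antichymotrypsin, had 7.07, 7.30 and 7.14 in WZR6, against 9.60, 9.49 and 9.42 in parental cells, or 5.05-fold lower (4.44 to 5.74, adjusted p = 2.17e-06 in limma). SERPINA1, alpha-1 antitrypsin, averaged 11.45 ± 0.07 in WZR6 and 11.10 ± 0.14 in parental cells (SD, n = 3 each), or 1.27-fold higher (1.12 to 1.45, adjusted p = 0.0114 in limma). The 2 genes are close relatives that lie in 1 gene cluster, and they differed in direction. Of 10 hepatocyte markers 9 were not called and APOH fell. Their summed intensity was 608 to 663 in WZR6 and 608 to 665 in parental cells, and ALB lay below the lower quartile at 4.53 in WZR6 and 4.37 in parental cells.

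Of 9 clade B serpins, which mostly act inside cells, 5 fell (55.6%) and 0 rose, against 22.7% lower and 23.3% higher of all genes. SERPINB5, maspin, an epithelial serpin that does not inhibit proteases in the usual way, had 6.16, 6.28 and 6.35 in WZR6, against 9.15, 9.17 and 9.14 in parental cells. The fall was 7.42-fold (6.72 to 8.19, adjusted p = 3.93e-07 in limma). SERPINB7, megsin, had 7.62, 7.62 and 7.72 in WZR6, against 8.67, 8.51 and 8.74 in parental cells, or 1.98-fold lower (1.76 to 2.23, adjusted p = 6.28e-05). SERPINB1, an inhibitor of neutrophil elastase, had linear intensities of 1302, 1300 and 1302 in WZR6, against 2052, 1969 and 2028 in parental cells, or 1.55-fold lower (1.44 to 1.67, adjusted p = 5.39e-05).

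SERPINB4, a squamous cell carcinoma antigen, had 9.91, 9.94 and 10.05 in WZR6, against 10.73, 10.65 and 10.61 in parental cells, or 1.63-fold lower (1.47 to 1.80, adjusted p = 0.000128 in limma). SERPINB3, its near-identical neighbour, was 1.37-fold lower, and the 2 cannot be cleanly separated by probe sets. SERPINB8 and SERPINB9, the granzyme B inhibitor, differed by 0.11 and -0.11 and were not called. SERPINB10 and SERPINB13 were not called, and all 6 probe sets of SERPINB13 differed by -0.01 to 0.17.

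Outside these clades, SERPINH1 rose and SERPING1 fell. SERPINH1, the collagen chaperone HSP47, had 12.42, 12.46 and 12.42 in WZR6, against 11.75, 11.68 and 11.62 in parental cells. Every WZR6 array lay above every parental array, and the rise was 1.68-fold (1.54 to 1.83, adjusted p = 4.87e-05 in limma). SERPING1, the C1 inhibitor of complement, fell 1.27-fold (adjusted p = 0.0235), with all 6 arrays at or below 5.98. SERPINF1 and SERPINI2 were not called.

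Kallikreins, secreted proteases best known from prostate and skin, lay at low levels. Their group means ran from 4.72 to 6.83 in WZR6 and from 4.54 to 6.63 in parental cells, all below the median of all values, 7.38. Only KLK6 among the 13 genes was called (7.69%), against 46.0% of all genes. Of all genes not above the median level of all probe sets, 20.0% were called. KLK6 had 4.88 ± 0.06 in WZR6 and 5.35 ± 0.15 in parental cells (SD, adjusted p = 0.00326 in limma), and it too lay near the lower quartile. The other 12 differed by -0.08 to 0.20.

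Of 9 trypsins and other PRSS genes, 4 fell (44.4%), 1 rose (11.1%) and 4 gave no call, beside 22.7% lower and 23.3% higher of all genes. PRSS3, mesotrypsin, which degrades trypsin inhibitors, had 7.21, 7.45 and 7.30 in WZR6, against 8.76, 8.68 and 8.84 in parental cells, or 2.71-fold lower (2.39 to 3.07, adjusted p = 1.6e-05 in limma). PRSS2, anionic trypsinogen, had 6.56, 6.53 and 6.64 in WZR6, against 7.11, 7.06 and 7.43 in parental cells, or 1.54-fold lower (1.30 to 1.82, adjusted p = 0.00226). PRSS2, PRSS3 and PRSS3P2, which fell 1.27-fold, have near-identical sequences and were all read by _x_at probe sets, so it is uncertain which of them changed, and the call of PRSS2 ended with the floor. PRSS23 fell 1.29-fold and was the brightest member, at 12.66 in WZR6 and 13.02 in parental cells. PRSS16, the thymus-specific serine protease, rose 1.41-fold.

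**Figure D3:**
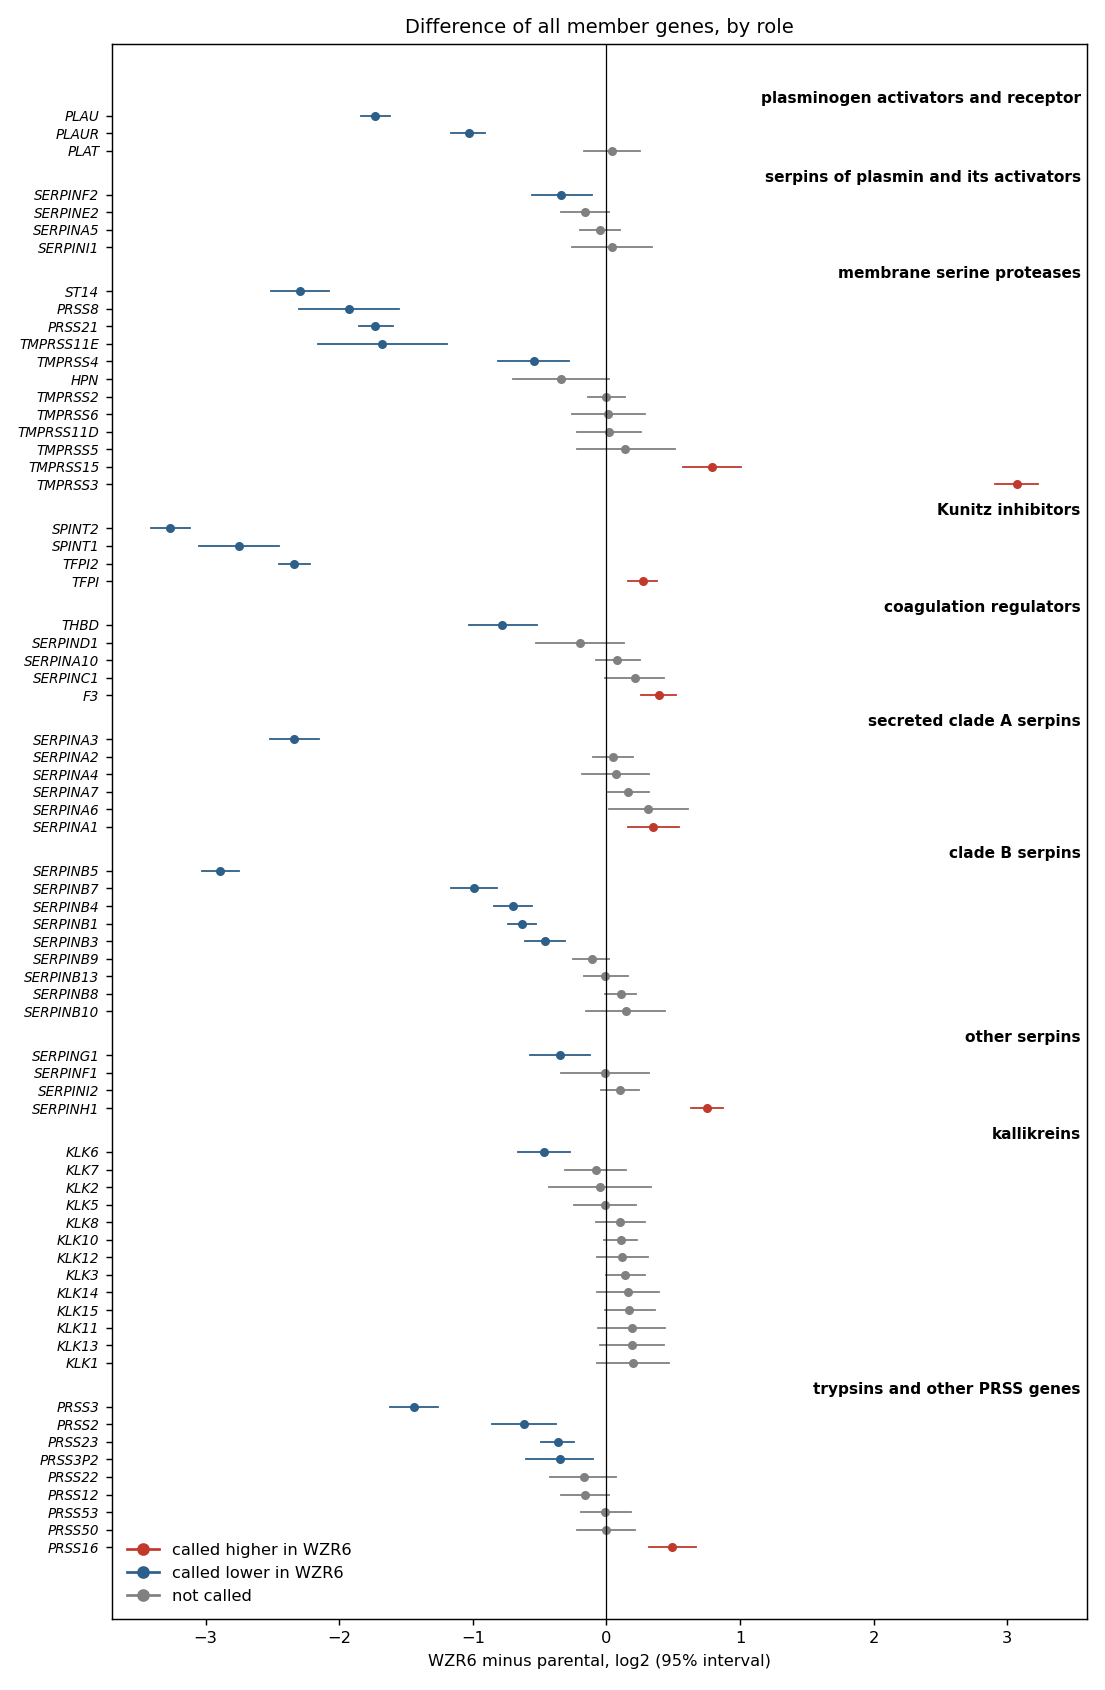
WZR6 minus parental difference on the log2 scale with its 95% interval for all 69 genes, grouped by role. Red genes were called higher, blue genes lower and grey genes not called. Kunitz inhibitors and membrane proteases hold most of the wide differences, and 12 of 13 kallikreins are grey.

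Members were dimmer than genes at large: 36.2% of the 69 had a mean above the median level of all probe sets, against 57.7% of all genes. Both group means lay below the lower quartile for 13 of the 69, a share close to that of all genes, 2233 of 11963, and no detection calls are given in the deposited table. The plot of level against difference shows that the members called lower ran from dim to bright, with PRSS23 the brightest of them.

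**Figure D4:**
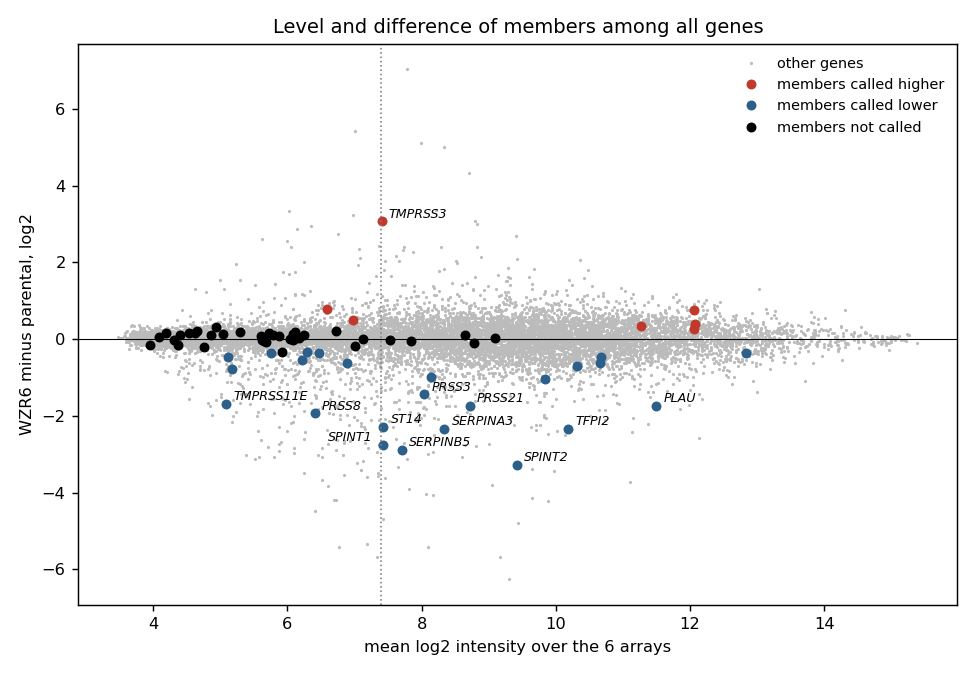
WZR6 minus parental difference against the mean log2 intensity over the 6 arrays, for members (large points) and the other genes (grey). The dotted line is the median level of all probe sets, 7.39. TMPRSS3 stands alone among members above a difference of 3, and SPINT2, SPINT1 and SERPINB5 lie lowest.

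Differences of members were also set beside those of their neighbours in gene order, the 15 nearest measured non-member genes on each side. F3 differed by 0.39 and its 30 neighbours by a median of 0.40, with 21 of them higher and 2 lower. PRSS3P2, at -0.35, was placed among only 18 neighbours (median -0.59), and PRSS2, on the same chromosome, among 30 (median -0.14). The place of PRSS3P2 in gene order is uncertain, so its neighbour median is not read. TFPI2 lay among neighbours that were also lower, 18 of 30 with a median of -0.32, but its own difference was -2.34. Neighbours of PLAUR and PLAU had medians of -0.17 and -0.14. For SPINT2, SPINT1, SERPINB5, ST14 and TMPRSS3 the medians were 0.15, 0.09, 0.09, 0.00 and 0.00, far from these genes' own differences. SERPINB3, SERPINB4, SERPINB5 and SERPINB7 lie in 1 cluster and share the neighbours. The part of a shift shared with neighbouring genes in these differences was not tested.

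**Figure D5:**
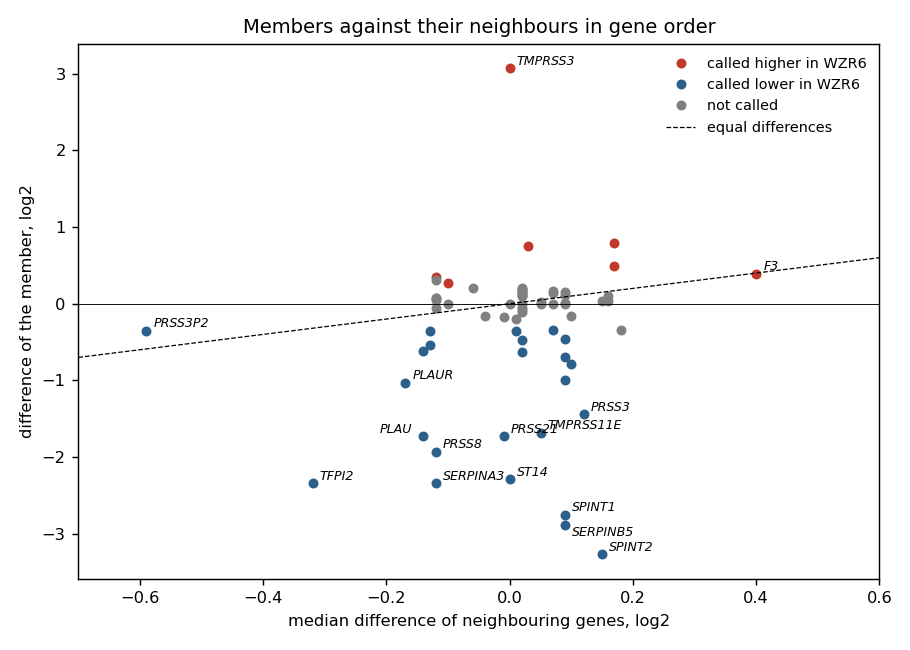
Difference of each member against the median difference of its neighbours in gene order, both WZR6 minus parental on the log2 scale. The dashed line marks equal differences. F3 lies on it, while SPINT2, SERPINB5 and SPINT1 lie far below and TMPRSS3 far above.

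Of 22 other protease inhibitors measured, 7 fell (31.8%), 2 rose (9.09%) and 13 gave no call, with a median of -0.02. The cystatins CST6, CSTA and CSTB, inhibitors of cysteine proteases, fell 6.53-fold, 4.89-fold and 2.11-fold, and RECK, a membrane inhibitor of matrix metalloproteases, rose 2.07-fold. Of 37 other serine proteases, 7 fell (18.9%), 5 rose (13.5%) and 25 gave no call, with a median of 0.02. Of all genes, 22.7% fell and 23.3% rose. The complement protease CFI differed by -3.58 on the log2 scale, the proprotein convertase PCSK5 by -2.81 and the secreted protease HTRA1 by -2.46, all lower, while TPSG1, a tryptase, rose 1.47-fold.

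Markers of other cell types were checked by their summed intensity. Among 8 leukocyte and platelet markers, at 564 to 602 in WZR6 and 712 to 799 in parental cells, 2 fell, CD14 and PPBP, and PTPRC lay at 4.17 in WZR6 and 4.20 in parental cells. Of 7 fibroblast markers, at 1261 to 1276 in WZR6 and 2188 to 2378 in parental cells, 4 were not called, PDGFRB rose and COL1A1 and COL1A2 fell. Of 6 endothelial markers, at 317 to 341 in WZR6 and 299 to 320 in parental cells, CDH5 rose and 5 were not called. Of 6 lung markers, at 517 to 541 in WZR6 and 1044 to 1114 in parental cells, NKX2-1 and FOXA2 fell, and SFTPB differed by 0.00. Their part in the results above was not tested.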

How the data were processed

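RNA of 3 WZR6 and 3 parental samples was hybridised to 1 array each. The deposited values are intensities on a linear scale, 1 per probe set, and the submitters' processing notes name RMA, without a version, as how the authors made them. RMA corrects background, normalizes between arrays and summarizes probes. The arrays' median intensity was 163 to 170, and log2 values correlated across probe sets at 0.9978 to 0.9983 within a group and 0.9815 to 0.9826 across groups, with 0 identical arrays.

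Of 22277 rows, 62 control probe sets were left out. Their log2 was taken without a pseudocount. GEO's platform annotation named 1 gene for 19064 probe sets, several for 1043 and was silent on 2108, and 11954 of 11963 genes matched RefSeq (GRCh38.p14), which gave gene order and promoters. Differences, WZR6 minus parental, were tested two-sided with limma 3.58.1 in R 4.3.3, with Benjamini-Hochberg adjustment. The model was tested on simulated data. Genes named with all values were called members at least 1.5-fold apart (20 genes) and 5 others from a fixed list; up to 4 called genes were named per list. Other genes named were chosen after their values were seen. The members and lists were chosen with earlier results of these data known. Only 3 arrays per group limit the precision. Figures used matplotlib 3.10.9.

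Alternatives were cyclic loess, median centring, quantile normalization, a filter above the median level, a floor at the median, log2(intensity + 16), the replicate block, a variance trend on intensity with robust fitting, no _x_at and _s_at probe sets (which can read several transcripts), averaging the probe sets of a gene, a fit over genes alone, and leaving out each array.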

Additional observations from a re-analysis of the deposited data

How the results depend on the processing

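Counts moved by over 1.5 times in 3 of 17 alternatives. Without _x_at and _s_at probe sets, where 54 probe sets and 47 genes of the group were measured, 3 probe sets were higher and 19 lower, and 2 genes were higher. Among probe sets above the median level, 24 of 36 probe sets and 15 of 25 genes were lower. In the comparison over all probe sets, 31.0% of all genes above that level were lower. SPINT1, SERPINB5 and ST14 passed this filter only through their parental arrays, so its counts are not read as a result. With values floored at the table's median, 22 probe sets and 15 genes were lower. Fewer probe sets tested, or values raised to the floor, set these counts by construction. Leaving out each array gave 22 to 27 genes lower, 7 to 9 higher and 13 to 14 at 2-fold or more.

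Of 408 values of the 25 named genes under an alternative, 399 kept direction and call. The floor ended the calls of PRSS8, TMPRSS11E, TMPRSS15, THBD and PRSS2, and lessened the differences of TMPRSS3 (1.56), SERPINB5 (-1.77), SPINT1 (-1.42) and ST14 (-1.20), which kept theirs. TFPI reversed, to -0.62 without _x_at and _s_at probe sets and to -0.01 as the mean of its probe sets. SERPINE2 and HPN gained a call without parental replicate 3. For 17 pairs no probe set was left. Under the 3 other scalings (quantile, cyclic loess, median centring), 0 of the 31 called members changed sign and 1 lost its call.

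With the replicate block, 24 genes were lower and 7 higher. Same-numbered arrays deviated together with r of -0.012, 0.115 and 0.226, so the numbers are not taken as pairs.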

Other observations

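Probe sets that the annotation gives to several genes were kept out of the comparisons. One read SERPINB3 and SERPINB4 together and was 1.42-fold lower, with 10.61, 10.72 and 10.70 in WZR6, against 11.26, 11.16 and 11.15 in parental cells (adjusted p = 0.00045 in limma). The other, for PRSS1 and PRSS2, was dim in both groups, at 4.06 ± 0.12 in WZR6 and 4.02 ± 0.22 in parental cells (SD, n = 3 each), and was not called (adjusted p = 0.802), unlike the PRSS2 probe sets with 1 gene.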
